A study of Mus musculus with 4 samples.

Results

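Between the start sites of Dph6 and Meis2 on mouse chromosome 2 lies a gene-poor stretch with 1 further protein-coding gene, BC052040. The window described here ran from 100 kb before the lowest of the 3 start sites to 100 kb beyond the highest, chr2:114554964-116165047 on GRCm38 (1610 kb), and an interval belonged to it when its centre lay inside. It held 76 of the 65467 control peaks of the series and 14 of its 3103 AP-2-dependent regions. A control peak is a stretch of open chromatin called from both control libraries together, and an AP-2-dependent region is one where the control libraries exceeded the EDKO libraries in a direct call. The window was chosen by its number of AP-2-dependent regions, so that number and every density made from it describe the choice and were not tested. It was also taken as a gene-poor stretch, so its sparse coding genes and the distances to them describe the choice too.

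The assay was ATAC-seq, in which a transposase cuts open, nucleosome-free DNA, on surface ectoderm dissected from the facial prominences of E11.5 mouse embryos. EDKO embryos carried Crect with Tfap2a flox/flox and Tfap2b flox/flox alleles. Their control littermates were Tfap2a flox/+ and Tfap2b flox/+ and lacked Crect. There were 2 libraries of each kind, made from 50000 cells per library and pooled over facial prominences. All 4 therefore carried floxed alleles of both genes, and only EDKO embryos carried Cre recombinase. Crect is a Cre transgene driven by an ectodermal enhancer from an intron of Tfap2a, so the deletion depends on where and when that enhancer is active.

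Tfap2a and Tfap2b encode AP-2α and AP-2β, transcription factors of the early ectoderm that bind a palindromic GC-rich site. Meis2 encodes a TALE homeodomain protein that binds DNA together with PBX partners and acts in the development of the face, limb, heart and brain. Developmental transcription factor genes of this kind often lie beside long stretches without coding genes, and distal enhancers in such stretches can act over large distances. Dph6 encodes an enzyme of diphthamide synthesis, the modification of a histidine in translation elongation factor 2, and BC052040, also called Cdin1, encodes a predicted nuclease whose human counterpart is mutated in a congenital dyserythropoietic anaemia.

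Each list was 1 combined call, so neither a value per library nor an error between libraries exists for any peak here. How many mapped reads lie behind a peak is not known either, as neither list gives read counts. All 9 surface ectoderm marker genes looked up had a control peak within 1 kb of their start site. So did all 9 neural crest mesenchyme markers and 1 of 3 endothelial markers (Kdr), while none of 3 blood markers did. The part of cells other than ectoderm in the peaks of the window was not tested.

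The regions were numbered 1 to 14 along the chromosome. Sequences around the summits are shown for the pair of regions with the largest area in the Dph6 gene, in the desert and in Meis2, since they rank highest in each part by that score, which grows with both width and significance. Regions 3, 10 and 13 and control peaks 14 and 25, which hold strings discussed below, were added after their values were seen. Capitals mark matches, on either strand, to the AP-2 string GCCNNNGGC, a looser AP-2 string SCCYNRGGS (S is G or C, Y is C or T, R is A or G), the TEAD string GGAATG, the MEIS string TGACAG, the PBX-MEIS string TGATTGACA and a p53 family consensus. All are printed from the plus strand of GRCm38. In the Dph6 gene the stretches are chr2:114590482-114590725 and chr2:114611697-114611930.
Region 1: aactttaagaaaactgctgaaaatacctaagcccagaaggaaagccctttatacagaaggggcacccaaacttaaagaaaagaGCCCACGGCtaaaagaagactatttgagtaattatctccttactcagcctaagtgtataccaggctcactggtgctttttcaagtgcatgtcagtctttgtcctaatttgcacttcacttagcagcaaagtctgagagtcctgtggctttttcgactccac
Region 2: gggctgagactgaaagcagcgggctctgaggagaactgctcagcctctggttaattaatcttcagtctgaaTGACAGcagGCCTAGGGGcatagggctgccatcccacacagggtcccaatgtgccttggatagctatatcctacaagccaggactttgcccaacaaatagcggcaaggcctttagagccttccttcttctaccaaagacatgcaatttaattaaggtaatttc

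In the desert the stretches are chr2:114793316-114793581, chr2:115375406-115375704 and chr2:115562205-115562503. The capitals are AP-2 strings in region 3, a MEIS string in region 8 and a pair of TEAD strings in region 9.
Region 3: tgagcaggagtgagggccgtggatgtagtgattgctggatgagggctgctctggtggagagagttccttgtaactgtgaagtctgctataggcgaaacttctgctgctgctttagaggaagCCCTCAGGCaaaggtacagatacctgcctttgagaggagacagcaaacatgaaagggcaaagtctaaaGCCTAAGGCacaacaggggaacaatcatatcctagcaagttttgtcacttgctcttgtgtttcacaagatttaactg
Region 8: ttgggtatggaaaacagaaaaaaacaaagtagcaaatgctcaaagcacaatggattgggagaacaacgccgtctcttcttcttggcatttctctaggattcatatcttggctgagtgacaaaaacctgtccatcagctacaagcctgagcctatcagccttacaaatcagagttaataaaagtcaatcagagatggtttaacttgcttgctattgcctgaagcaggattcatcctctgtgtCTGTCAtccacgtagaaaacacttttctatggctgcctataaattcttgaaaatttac
Region 9: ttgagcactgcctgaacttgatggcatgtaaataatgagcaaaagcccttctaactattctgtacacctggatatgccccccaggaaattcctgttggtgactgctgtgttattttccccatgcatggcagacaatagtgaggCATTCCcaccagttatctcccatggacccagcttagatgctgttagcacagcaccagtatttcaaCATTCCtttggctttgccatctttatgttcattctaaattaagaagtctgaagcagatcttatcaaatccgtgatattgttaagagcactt

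In Meis2 the stretches are chr2:115876246-115876514, chr2:115919171-115919469, chr2:115961538-115961819 and chr2:115969223-115969463. Region 10 holds an AP-2, a TEAD and a MEIS string, region 11 a MEIS string, region 12 a looser AP-2 string and region 13 a PBX-MEIS string.
Region 10: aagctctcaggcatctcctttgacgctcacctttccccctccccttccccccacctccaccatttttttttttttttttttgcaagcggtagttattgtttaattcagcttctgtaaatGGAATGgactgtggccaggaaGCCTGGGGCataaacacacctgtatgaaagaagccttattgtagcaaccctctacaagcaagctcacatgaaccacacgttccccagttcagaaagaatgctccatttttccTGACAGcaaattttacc
Region 11: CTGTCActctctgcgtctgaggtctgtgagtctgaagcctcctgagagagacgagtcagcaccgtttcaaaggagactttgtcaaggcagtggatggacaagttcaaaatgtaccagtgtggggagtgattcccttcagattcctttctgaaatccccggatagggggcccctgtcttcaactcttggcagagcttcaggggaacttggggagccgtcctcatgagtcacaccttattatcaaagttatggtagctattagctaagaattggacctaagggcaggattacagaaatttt
Region 12: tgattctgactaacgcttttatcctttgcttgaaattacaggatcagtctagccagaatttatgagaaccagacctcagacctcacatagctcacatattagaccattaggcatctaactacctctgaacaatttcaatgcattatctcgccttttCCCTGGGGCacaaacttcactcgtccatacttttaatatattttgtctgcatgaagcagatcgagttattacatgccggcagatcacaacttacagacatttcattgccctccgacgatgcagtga
Region 13: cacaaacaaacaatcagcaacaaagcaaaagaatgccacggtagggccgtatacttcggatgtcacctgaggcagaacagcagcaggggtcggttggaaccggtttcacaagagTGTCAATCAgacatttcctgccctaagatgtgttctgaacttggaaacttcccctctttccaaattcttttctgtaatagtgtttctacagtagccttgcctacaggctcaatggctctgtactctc

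Control peaks 14 and 25 overlapped no AP-2-dependent region although each holds an AP-2 string within 100 bp of its summit. Their stretches are chr2:115346514-115346714 and chr2:115581570-115581715, the latter ending at the first base before BC052040. In control peak 14 the first capitals are the p53 family match and the later ones the AP-2 string.
Control peak 14: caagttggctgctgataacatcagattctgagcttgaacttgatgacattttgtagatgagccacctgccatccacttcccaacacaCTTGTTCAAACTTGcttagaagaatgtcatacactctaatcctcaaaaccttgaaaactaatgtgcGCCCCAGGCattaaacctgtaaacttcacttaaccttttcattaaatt
Control peak 25: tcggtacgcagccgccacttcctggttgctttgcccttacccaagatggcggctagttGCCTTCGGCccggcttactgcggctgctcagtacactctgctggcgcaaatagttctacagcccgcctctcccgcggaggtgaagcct

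Over the window as a whole, control peaks were denser and coding genes sparser than over the 21 chromosomes. The window held 47.2 control peaks per Mb against 24.0 over the 21 chromosomes, but 1.86 coding start sites per Mb against 8.02. The density was uneven, with 129 control peaks per Mb in the Meis2 body and 110 upstream of it. Between the Dph6 and BC052040 start sites it was 21.6 per Mb, the only part below the 24.0. Beside the 3 coding genes, 15 non-coding genes or pseudogenes are annotated. Every one of the 14 regions lay wholly inside a control peak, each in a different one, so 14 of 76 control peaks (18.4%) held a region. Over all control peaks the share was 4.48%, and over those more than 5 kb from every coding start site it was 5.74%. The higher share follows from the choice of the window and nothing is read from it. The nearest regions outside lay 685 kb below the lower edge and 484 kb above the upper edge. The outermost control peaks inside had summit values of 5.35 and 4.61, and the nearest ones outside, 102 kb and 28.2 kb beyond the edges, had 5.96 and 3.28.

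**Figure D1:**
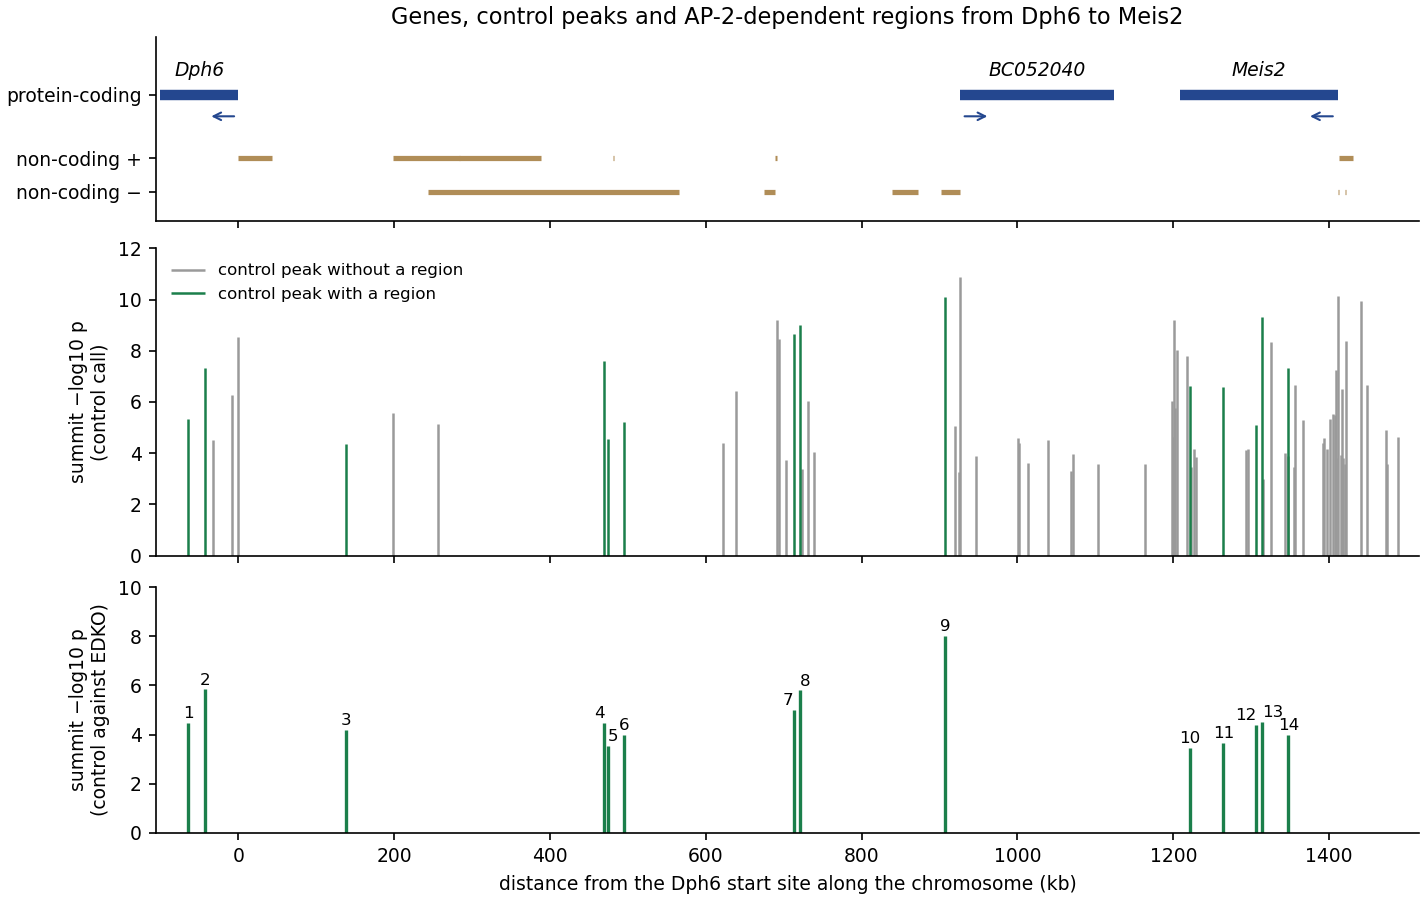
Genes (top), summit −log10 p of the 76 control peaks (middle) and of the 14 AP-2-dependent regions (bottom) against distance from the Dph6 start site in kb; arrows give the direction of transcription. Regions 1 to 9 lie in Dph6 and the desert and regions 10 to 14 in Meis2, with none in BC052040 or upstream of Meis2.

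For each interval the lists give the −log10 p at the summit, which was not adjusted for the number of positions, and the area under the curve, a score that sums −log10 p above its threshold over the width of the interval. The background of the call differed between the lists, so values were set side by side within a list only. Among the 14 regions the area ranged from 209 to 1279 with a median of 407, against a median of 395 over all regions. The summit −log10 p ranged from 3.45 to 8.02 with a median of 4.42, against 4.40. As a set the regions were thus of ordinary strength for the list, and 1 stood well above the others.

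Within the 100 kb of Dph6 that the window takes in there were 5 control peaks and 2 regions, and both regions lay in intron 3. Region 1 had an area of 363 and a summit −log10 p of 4.48. Region 2, 43.2 kb inside the gene, had an area of 698 and a summit value of 5.83, the third-largest area of the window. The Dph6 promoter itself was open in control ectoderm: control peak 5, 992 bp wide, covered the start site with a summit value of 8.54, and it overlapped no region. The same peak covered the start site of the non-coding gene Gm13972, which runs the opposite way. The remaining 2 peaks in the gene, with values of 4.51 and 6.26, held no region either.

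The 927 kb between the start sites of Dph6 and BC052040 contained no coding gene, 20 control peaks and 7 regions. The long non-coding gene Gm13974 had 2 control peaks, 1 of them on its start site with a summit value of 5.55, and no region. Control peak 14, at 9.22, lay in an intron of Gm13976, and together with peak 15, at 8.47, within 5 kb of the start sites of Gm13976 and 4930528P14Rik. Region 3 stood alone 138 kb upstream of Dph6, with an area of 417 and a summit value of 4.19. Regions 4, 5 and 6 lay within 25.2 kb of each other in an intron of the long non-coding gene Gm28494. They were between 432 and 457 kb from the nearest coding start site, and their areas were 464, 209 and 263. No control peak without a region lay between these regions. Regions 7 and 8, which together spanned 8.56 kb of intergenic sequence, had areas of 397 and 804 and summit values of 5.00 and 5.79. Region 8 was also the widest, at 1064 bp.

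Region 9 was the strongest of the window. It lay in an intron of Gm13977, a gene transcribed divergently from BC052040, 19.4 kb from the BC052040 start site and 503 kb from that of Meis2. Its area of 1279 exceeded that of 90.04% of all regions, and its summit −log10 p was 8.02. The control peak around it, number 22, had a summit value of 10.1. Control peak 25, which covered the start sites of both BC052040 and Gm13977, had the highest summit value of the window, 10.9, and no region.

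The 197 kb body of BC052040 held 8 control peaks and no region. With a share of 4.48% over all control peaks, nothing is read from the lack of a region in 8. The 8 had summit values from 3.30 to 4.61 and a median of 3.93, the lowest median of any part of the window. Control peak 27 in this gene consists wholly of repeat-masked sequence whose 31-base words occur a median of 3600 times in the genome. It was the only control peak of the window without single-copy sequence, and without it the share with a region was 18.7%. All 14 regions were single copy.

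From the BC052040 3′ end to that of Meis2 there were 6 control peaks and no region. Of these, 5 formed a tight row over 9.065 kb just beyond the Meis2 3′ end, between 1128 and 2055 bp wide, with summit values from 4.64 to 9.21. The strongest of them, control peak 37, contained the only CTCF consensus found within 100 bp of the summit of a control peak of the window. CTCF is the factor that marks many chromatin loop anchors. The match is in 1 of the 62 control peaks of the window without a region (1.61%). Over all control peaks without a region on the 21 chromosomes the share was 6.47%, and nothing is read from 1 match. Region 9 and region 10 bracketed a run of 18 control peaks without a region, which spanned 299 kb. It took in the BC052040 promoter, all of BC052040, this row and the first control peak inside Meis2. The run was picked out after its values were seen and was not tested against the 4.48% over all control peaks. Nothing is read from the lack of a region in it.

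The body of Meis2 was the densest part of the window, with 26 control peaks in 202 kb, of which 5 held a region. Regions 10 and 11 lay in intron 9, regions 12 and 13 in intron 8 and region 14 in intron 7. They lay between 62.5 and 189 kb from the start site of the gene. The areas were 255, 464, 495, 358 and 215 in that order, and the summit values lay between 3.45 and 4.52. In the control call, the peaks around regions 10 to 14 had summit values of 6.61, 6.59, 5.11, 9.31 and 7.32 in that order. The other 21 control peaks of Meis2 ranged from 3.01 to 8.34 in that call, with a median of 4.18.

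No AP-2-dependent region lay within 60 kb of the Meis2 start site. From region 14 to the upper end of the window, 22 successive control peaks over 134 kb held none, a stretch picked out after its values were seen and not tested against the 4.48% over all control peaks. The start site of the principal Meis2 transcript fell in a gap between 2 control peaks, 160 bp from the edge of one and 101 bp from the edge of the other. Control peak 65, inside the gene, had a summit value of 7.26. Control peak 66 was 3010 bp wide with an area of 11455, the largest in the window, and a summit value of 10.1. It covered the upstream Meis2 start sites and those of the non-coding genes 2700033N17Rik and G630016G05Rik. The body of G630016G05Rik held 5 control peaks, and control peak 71 there, at 8.36, also covered the start site of 2810405F15Rik. Control peak 72, 30.9 kb upstream of Meis2, reached 9.96 and likewise held no region. At all 3 genes open chromatin thus lay on or beside the start site in control ectoderm, with no region on it. With a share of 4.48% over all control peaks, nothing is read from the lack of a region at 3 start sites.

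**Figure D2:**
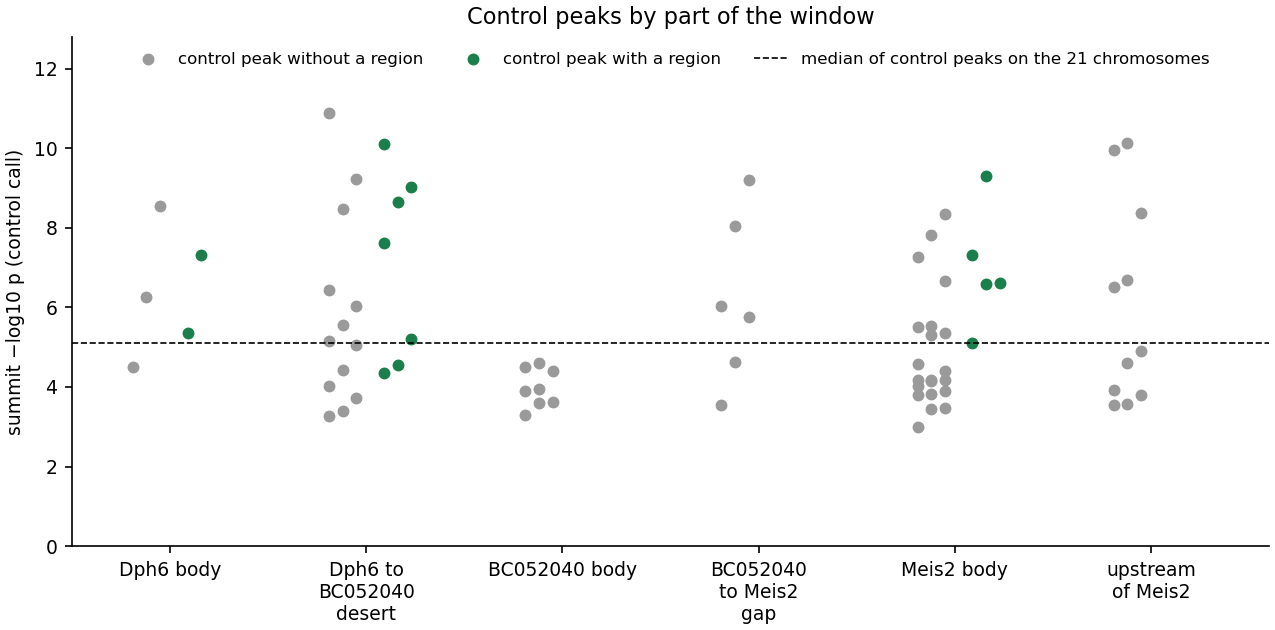
Summit −log10 p in the control call for each control peak, by part of the window, with (green) and without (grey) an AP-2-dependent region; the dashed line is the median of control peaks on the 21 chromosomes, 5.10. Peaks with a region lie between 4.34 and 10.1, all 8 peaks in BC052040 lie below the line, and the highest peak, 10.9, has no region.

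In the control call, the median summit −log10 p was 6.96 for the 14 peaks that held a region and 4.59 for the 62 that did not. The corresponding medians over all control peaks were 6.92 and 5.02. The ranges overlapped widely, since peaks with a region ran from 4.34 to 10.1 and those without from 3.01 to 10.9. Of the window's control peaks, 12 of 14 with a region and 26 of 62 without lay above the median of all control peaks. These values share the control libraries with the regions and are given as a description.

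How much of its control peak a region filled varied from 25.4% to 98.9%. In 5 cases it was at least 90%, namely regions 1, 2, 3, 6 and 12, which all sat in control peaks with an area of at most 1143. Region 7 filled the smallest share, in a control peak 1280 bp wide. The summit of a region lay within 50 bp of the summit of its control peak in 11 of 14 cases, and regions 7 and 9 had the very same summit base. The largest shift was 95 bp, in region 13.

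**Figure D3:**
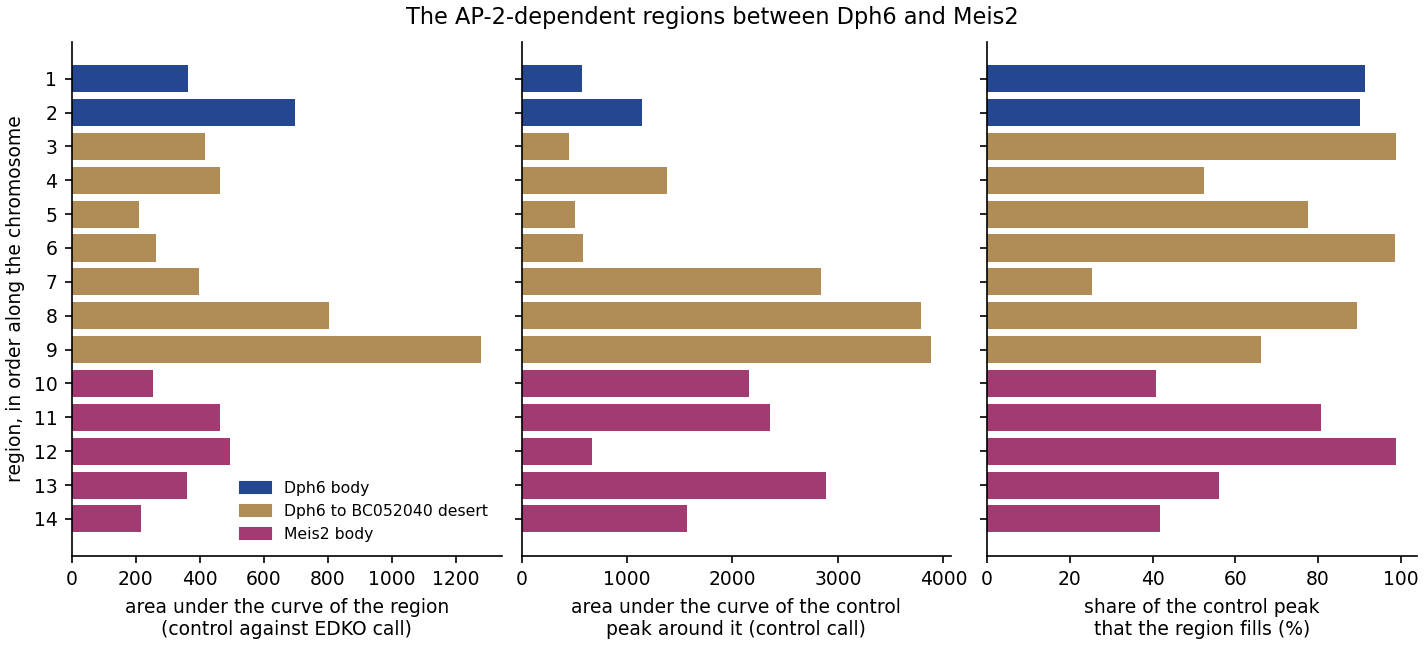
Area under the curve of each of the 14 regions (left), area of the control peak around it (middle, a different call and scale) and percent of that control peak which the region fills (right), coloured by part of the window. Region 9 has the largest area, 1279, while the filled share runs from 25.4% in region 7 to 98.9% in region 3.

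The AP-2 strings were not used to choose the window. Anywhere in the region, 7 of 14 regions held GCCNNNGGC (50%, Wilson 95% interval 26.8% to 73.2%), against 29.7% of all regions. The looser string occurred in 10 of 14 (71.4%, 45.4% to 88.3%) against 58.7%. One or the other was in 11 of 14 regions (78.6%), against 64.0% of all regions, and regions 8, 13 and 14 had neither. With 14 regions these intervals are wide and include the shares over all regions.

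The 7 matches to the AP-2 string were of 6 different words, and 6 of the 7 also matched the looser string. Regions 6 and 10 held the same one, GCCTGGGGC, in the desert and in Meis2 respectively, at 12 and 5 bp from the summit. Region 1 held GCCCACGGC at 7 bp, region 3 GCCTAAGGC, region 4 GCCTAGGGC, region 5 GCCCAGGGC and region 7 GCCTCAGGC. In the desert 5 of 7 regions held the AP-2 string, in Meis2 1 of 5 and in the Dph6 gene 1 of 2. The 3 regions with the largest areas, numbers 9, 8 and 2, did not hold it, although regions 2 and 9 held the looser string.

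Restricted to 100 bp on each side of the summit, 5 of 14 regions held the AP-2 string (35.7%, 16.3% to 61.2%), against 22.7% of all regions, and 7 of 14 the looser string (50%), against 49.6%. In region 14 that match lay just outside the called region. Of the 62 control peaks of the window without a region, 8 held the AP-2 string there (12.9%, 6.69% to 23.4%) and 9 the looser string (14.5%, 7.83% to 25.3%). Over all control peaks without a region on the 21 chromosomes the shares were 14.01% and 19.0%. The 8 were spread over the desert (3), Meis2 (4) and the stretch upstream of Meis2 (1). An AP-2 string at the summit was thus present in control peaks with and without a region.

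**Figure D4:**
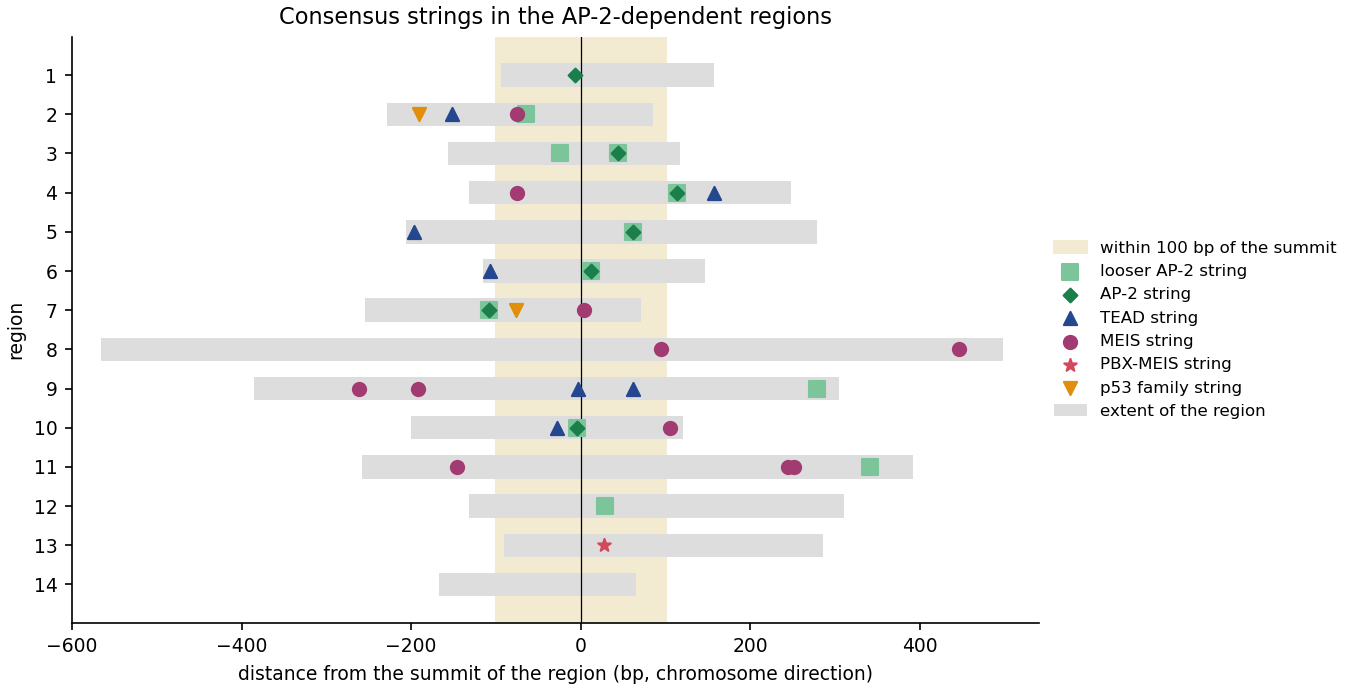
Positions of consensus strings in the 14 regions relative to the summit of each region, in bp; grey bars are the extent of the regions and the shaded band is 100 bp on each side of the summit. AP-2 strings lie near the summit in regions 1, 3, 5, 6 and 10, while regions 8, 9 and 13 show MEIS, TEAD and PBX-MEIS strings there.

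Of the other strings, TEAD was anywhere in the region in 6 of 14 regions (42.9% against 30.8% of all regions), MEIS in 7 (50% against 42.4%), PBX-MEIS in 1 (7.14% against 2.05%) and the p53 family consensus in 2 (14.3% against 17.9%). The TEAD string, for the factors of the Hippo pathway, was within 100 bp of the summit in regions 9 and 10 (14.3% against 19.2% of all regions), with 2 copies in region 9. The MEIS string was in regions 2, 4, 7 and 8 (28.6% against 28.7%). The PBX-MEIS string was in region 13 only, in an intron of Meis2 (7.14%, 1.27% to 31.5%, against 1.30%). That interval includes the share over all regions, and nothing is read from 1 match. The p53 family consensus, which TP63 of the epidermis also binds, was in region 7 (7.14% against 10.5%). Neither the grainyhead string AACCNGGTT nor the CTCF consensus was in any of the 14. In the whole list 1 and 10 regions held them this near the summit. That grainyhead string has a free base at its centre, and the form without it, AACCGGTT, was not searched for. The printed stretch of region 13 holds AACCGGTT, so nothing is read from the lack of grainyhead matches. A match is a stretch of letters and says nothing of binding. The AP-2, looser AP-2 and grainyhead strings and the p53 family consensus are palindromic in their fixed letters, and the PBX-MEIS string overlaps the MEIS string by TGACA.

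The regions were poorer in G and C than the list as a whole, with a median of 44.0% against 48.0%. So were the control peaks of the window without a region, at 46.0% against 52.1% for all such peaks on the chromosomes. The distance of the regions from the nearest coding start site had a median of 142 kb against 51.3 kb. Of the 14, 9 were more than 100 kb from every one. No region was within 19 kb of one. The window holds only 3 coding start sites in 1610 kb, so long distances follow from its choice and nothing is read from them. Neighbouring regions were between 4.57 and 331 kb apart, centre to centre.

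Genome-wide, 1077 intervals of at least 500 kb separate neighbouring coding start sites. Of these 580 held no region, and the medians were 0 regions and 9 control peaks. The Dph6 to BC052040 interval, with 7 regions in 20 control peaks (35%), was among 8 intervals with at least 7 regions, and 214 had at least as many control peaks. In the class as a whole 7.27% of control peaks held a region. The other 7 with at least 7 regions had between 31 and 59 control peaks, of which 11.8% to 29.0% held a region. The cut at 7 is the count of this interval itself, which lies in a window chosen by such counts. Its place among the 8 is therefore a description only. Intervals below the cut could have a higher share, such as Pcdh20 to Pcdh9 (6 of 15) and 4921530L21Rik to Klhl1 (5 of 10). The Trps1 to Eif3h interval, a desert of like length (976 kb) beside another developmental regulator, had 9 regions in 31 control peaks (29.0%). The BC052040 to Meis2 interval, 483 kb long and so below the limit, had 5 in 40 (12.5%).

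**Figure D5:**
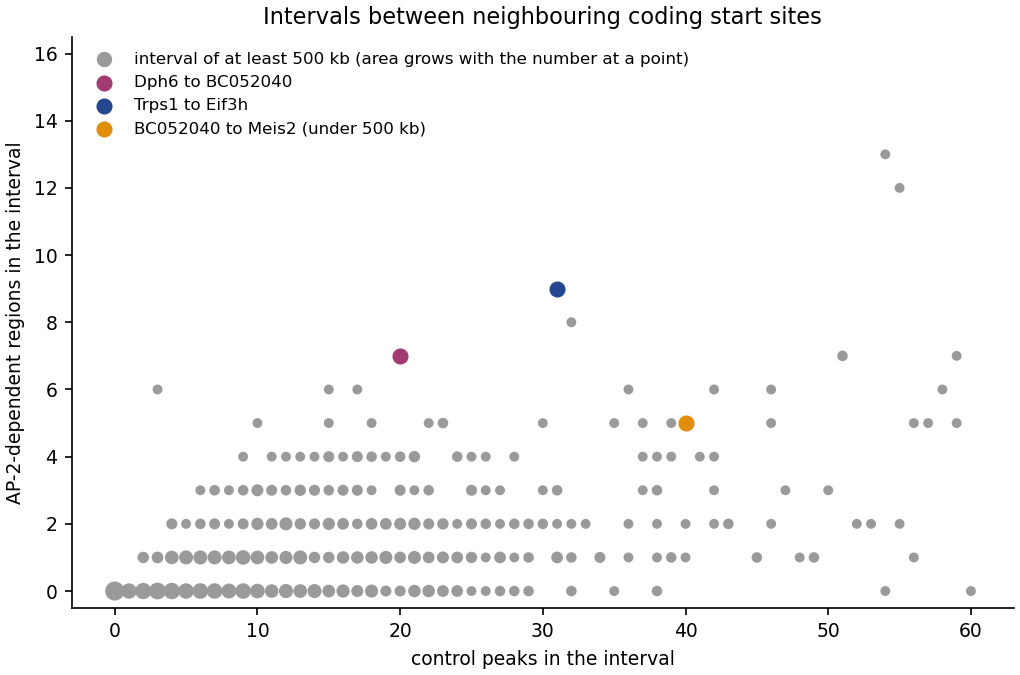
AP-2-dependent regions against control peaks for intervals of at least 500 kb between neighbouring coding start sites (grey, marker area growing with the number of intervals at a point), with 3 intervals coloured. Dph6 to BC052040 (7 regions, 20 peaks) has fewer control peaks than the other intervals with 7 or more regions.

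Meis2 was also set beside its closest relatives, Meis1 and Meis3, and beside Tgif1, a more distant relative that encodes a repressor of retinoic acid and TGFβ signalling. Within 100 kb of the start site, 2 of 28 control peaks at Meis2 held a region (7.14%) and 1 of 16 at Tgif1 (6.25%). None of 21 control peaks at Meis1 and none of 14 at Meis3 did. At Pknox1, Pknox2, Pbx2, Pbx3, Pbx4 and Tgif2, of the same homeobox family and with 5 to 16 control peaks each, none did either. Over all control peaks the share was 4.48%, so these small counts lie near the background and no difference between the genes is read from them. Regions 10, 11 and 12 in Meis2 itself, like the regions of the desert, lay outside this limit and did not enter the comparison.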

How the data were processed

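For the 2 control and 2 EDKO libraries, per the labels and the methods of the study, reads were trimmed with NGmerge, aligned to mm10 with bowtie2 (up to 10 alignments kept per read) and called with Genrich 0.5, leaving out PCR duplicates and mitochondrial reads. The authors combined both control libraries for the control peaks, and set them against both EDKO libraries for the AP-2-dependent regions. The deposited area under the curve is a score, and the deposited summit value is a −log10 p without adjustment. Both belong to a combined call, so no test and no error between libraries could be computed, and the number of mapped reads per library is not in the lists. Not analysed here were reads, coverage, H3K4me3 and RNA-seq data.

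Start sites were those of principal transcripts in GENCODE release 21 for the mouse (21853 genes on 21 chromosomes). Overlaps counted from 1 bp. Copy number was the median genomic count of 31-base words, below 2 for single copy. Strings were matched on both strands, and shares carry 95% Wilson intervals that cover counting error only. Named were all annotated genes with a peak or region in them or within 5 kb of their start site, all regions, and control peaks without a region that lay within 1 kb of a start site of the 3 genes or were among the 5 highest. The genes, strings, comparison intervals and family list were chosen with earlier results of these data known. Programs (Python 3.11.15, pandas 2.3.3) were tested on simulated data. For 1 gene of the family list the result is not reported here.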

Additional observations from a re-analysis of the deposited data

How the results depend on the processing

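For 6 results 20 alternatives were computed, all planned, and 15 stayed within 1.5 times the count or within the counting interval of the share. The other 5 came from keeping intervals with an area of at least 500 in their list. That left 48 control peaks and 3 AP-2-dependent regions (numbers 2, 8 and 9), so 6.25% of control peaks held a region, where the same limit left 2.46% over all control peaks. It left 2 regions between the Dph6 and BC052040 start sites and 0 regions with the AP-2 string GCCNNNGGC, since none of the 3 holds it. Flanks of 0 and 250 kb gave 12 and 14 regions among 60 and 82 control peaks. An overlap of at least 50% of both intervals gave 14.5%. No paired analysis was possible because each list is 1 combined call with no value per library, and for the same reason no library could be left out. The lists hold no read counts, so how depth limits which control peaks reached the call against EDKO is unknown, and a control peak without a region is not shown to be unchanged.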
